A study of Mus musculus with 34 samples.

Results

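Glycolysis and the hypoxia response were followed through 32 listed genes in 3T3-L1 cells, a mouse preadipocyte line, as the cells entered adipocyte differentiation with and without a knockdown of KDM5 demethylases. The members were chosen by name and not by a threshold on measured values. Of the 32, 20 encode glucose and lactate transporters or enzymes of glycolysis, and 12 are other targets or regulators of the hypoxia-inducible factor HIF. The RNA table holds 17515 transcripts, of which 13534 had enough signal to test, and 31 of the 32 members were among them. Aldoc, the brain-type aldolase, did not pass the filter on low values (log2 level -0.19 to 1.44).

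Glycolysis turns glucose into pyruvate and then lactate, with glucose entering through transporters such as GLUT1 and lactate leaving through monocarboxylate carriers. HIF is a transcription factor whose alpha subunit is hydroxylated by oxygen-dependent prolyl hydroxylases and then degraded. When it accumulates it binds DNA at a short core motif and raises many glycolytic genes along with genes for vessel growth, mitophagy and collagen modification. In adipocytes, glycolytic flux also supplies carbon and glycerol for stored fat. KDM5 proteins remove methyl groups from lysine 4 of histone H3, a mark whose trimethylated form, H3K4me3, sits at active promoters.

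The series holds 34 samples. RNA (12 libraries) and H3K4me3 ChIP (12 libraries) were made from cells carrying a lentiviral short hairpin against luciferase (shLuc, the control) or hairpins against Kdm5a, Kdm5b and Kdm5c (shKdm5ABC), at day 0, 4 hours and day 2, with 2 libraries per group. Day 0 cells were already 2 days past confluence and uninduced, while the other groups had received dexamethasone, insulin, IBMX and serum. All shLuc and shKdm5ABC cells were transduced 4 days before induction, for 24 h with 6 µg/mL polybrene, so controls also carry virus. All ChIP samples were crosslinked with 0.2 mM DSG for 45 minutes and 1% formaldehyde for 10 minutes. KDM5A ChIP (6 libraries, 2 per time) and KDM5C ChIP (2 libraries, day 2) come from cells with no transduction stated, and a single input column accompanies them. Libraries of a group are titled as separate experiments, but whether these were independent cultures is not stated, so p-values measure only the spread between these libraries.

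RNA values are log2 normalized tags per kb of transcript, so levels can be compared between genes. A difference was called when its limma adjusted p was under 0.05, and only called differences are described as a rise or fall. In shKdm5ABC libraries Kdm5a was left at 50.7% to 58.1% of shLuc, Kdm5b at 60.2% to 63.9% and Kdm5c at 38.0% to 39.7%, all called. The summed level of 10 adipocyte markers (log2) was 11.7 to 12 in shLuc at day 0 and 15.2 to 15.5 at day 2, against 14.3 to 15.1 in the knockdown at day 2. Of 8 preadipocyte markers the summed level was 15.0 to 15.2 in shLuc at day 0, 11.9 to 12.5 at day 2 and 12.7 to 13.1 in the knockdown at day 2. Of 9 macrophage markers 8 were in the table and 3 or 4 reached a log2 level of 1. Their summed level was higher in the knockdown at day 0 (6.83 to 6.90 against 5.99 to 6.11 in shLuc) and at 4 hours (6.56 to 6.63 against 5.88 to 6.25), with 1 of 4 tested markers called at each time, and overlapped at day 2 (5.23 to 5.71 against 4.97 to 5.75). Of 6 endothelial markers 5 were in the table and 1 or 2 reached a log2 level of 1, and their sum was 4.38 to 4.91 in the knockdown and 3.62 to 3.93 in shLuc at day 0. Of 7 muscle markers 5 were in the table and 3 reached it, and their sum was 9.51 to 10.7 in shLuc at day 0, 10.4 to 11.6 at 4 hours and 5.85 to 5.90 at day 2, against 6.10 to 6.47 in the knockdown at day 2. The part of these cell type markers in the results was not tested. In bulk RNA, fewer cells of a type and less RNA per cell cannot be told apart.

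The core of the HIF binding site, ACGTG or GCGTG, was searched on both strands in promoter windows of 300 bases (250 before to 50 after the start site, RefSeq, GRCm38.p6). Windows were found for 30 of the 32 members. The core occurred in 23 of the 30 (76.7%), against 43.8% of all genes, in 14 of 20 glycolytic genes and in 9 of 10 other members. CACGTG, which reads the same on both strands, counts as a match on each. For comparison CCGCCC or its reverse complement, a GC-rich word, was in 22 of the 30 windows and in 35.9% of all genes, so the members' windows were also richer in a word that is not the HIF core. The part played by base composition was not tested. Among members called at 4 hours in shLuc cells, 3 windows with most matches are printed with every match in capitals, read 5′ to 3′ on the gene's strand; they belong to lactate dehydrogenase A (Ldha, 7 matches, chr7:46845554-46845853, plus strand), the mitophagy receptor Bnip3 (5 matches, chr7:138909457-138909756, minus strand) and the collagen prolyl hydroxylase P4ha2 (4 matches, chr11:54100674-54100973, plus strand). P4ha2 shared its 4 matches with Pfkp and was taken for its larger 4-hour difference, and Ankrd37, not called at 4 hours, also had 4.
Ldha: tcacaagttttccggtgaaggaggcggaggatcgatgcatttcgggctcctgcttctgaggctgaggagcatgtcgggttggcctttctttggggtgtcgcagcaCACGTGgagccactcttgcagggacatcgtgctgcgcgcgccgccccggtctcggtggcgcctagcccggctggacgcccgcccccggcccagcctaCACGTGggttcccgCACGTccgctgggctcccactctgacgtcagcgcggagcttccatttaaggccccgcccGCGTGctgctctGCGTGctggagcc
Bnip3: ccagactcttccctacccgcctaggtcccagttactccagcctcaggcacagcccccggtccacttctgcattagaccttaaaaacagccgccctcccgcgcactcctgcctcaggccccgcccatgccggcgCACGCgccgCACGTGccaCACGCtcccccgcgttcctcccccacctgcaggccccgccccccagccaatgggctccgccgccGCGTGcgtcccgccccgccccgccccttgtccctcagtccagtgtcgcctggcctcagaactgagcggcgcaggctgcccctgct
P4ha2: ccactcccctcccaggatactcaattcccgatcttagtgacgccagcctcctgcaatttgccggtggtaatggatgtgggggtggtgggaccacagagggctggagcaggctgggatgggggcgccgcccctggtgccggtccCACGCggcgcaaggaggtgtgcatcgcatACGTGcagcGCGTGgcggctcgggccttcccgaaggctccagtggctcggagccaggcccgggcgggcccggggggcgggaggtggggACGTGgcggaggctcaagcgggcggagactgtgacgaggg

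Windows of 3 members that hold no match are shown beside them, because their RNA differed most at 4 hours among members without one. They are the vessel growth factor Vegfa (chr17:46032328-46032627, minus strand), the neuronal enolase Eno2 (chr6:124769624-124769923, minus strand) and pyruvate kinase M, Pkm (chr9:59656326-59656625, plus strand).
Vegfa: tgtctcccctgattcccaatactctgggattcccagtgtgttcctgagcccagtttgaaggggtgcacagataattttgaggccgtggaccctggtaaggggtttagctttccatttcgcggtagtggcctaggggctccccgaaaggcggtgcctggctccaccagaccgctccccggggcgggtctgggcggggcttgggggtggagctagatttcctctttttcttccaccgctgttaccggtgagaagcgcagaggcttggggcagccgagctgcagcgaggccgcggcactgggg
Eno2: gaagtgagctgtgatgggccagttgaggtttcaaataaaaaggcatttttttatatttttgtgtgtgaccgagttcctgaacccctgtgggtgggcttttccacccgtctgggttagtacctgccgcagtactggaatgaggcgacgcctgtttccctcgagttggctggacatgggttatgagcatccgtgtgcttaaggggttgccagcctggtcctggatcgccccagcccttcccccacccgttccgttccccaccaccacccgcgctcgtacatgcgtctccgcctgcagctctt
Pkm: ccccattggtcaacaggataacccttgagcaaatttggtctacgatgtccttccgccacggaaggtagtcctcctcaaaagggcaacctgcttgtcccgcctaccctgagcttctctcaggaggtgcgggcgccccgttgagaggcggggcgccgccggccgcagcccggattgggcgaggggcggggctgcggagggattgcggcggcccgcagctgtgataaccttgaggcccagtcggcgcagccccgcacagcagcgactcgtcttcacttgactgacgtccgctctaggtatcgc
A match is a run of letters and not a shown binding site, and a window without one says nothing of sites elsewhere. Of the 17 members with a window that rose at 4 hours in shLuc cells, 14 held a match, beside 23 of all 30 members with a window. Whether a match goes with the rise was not tested.

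Within 4 hours of induction, shLuc cells raised most of the pathway. Of 31 tested members 18 rose and 2 fell, where 20.7% of all tested transcripts were called higher and 21.6% lower. Among glycolytic genes 11 of 19 rose and 2 fell, and among the other members 7 of 12 rose and none fell. The median difference of the 31 members was 0.67 on the log2 scale, against -0.02 over all tested transcripts. By day 2, 16 members were higher than at day 0 and 6 lower (27.1% and 27.8% of all tested transcripts). Here the sides parted, with 13 glycolytic genes higher and 3 lower, and 3 of the other members higher and 3 lower. Both comparisons use the same day 0 libraries, so they are not independent of each other. With the replicate number as a block, 26 members were called at 4 hours (17 glycolytic, 9 other) and 25 at day 2 (17 and 8). Of 13534 transcripts that fit called 3847 higher and 4068 lower at 4 hours, and 4482 and 4552 at day 2. Calls over time of single genes below come from the fit without the block, and some genes not called there pass with it.

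**Figure D1:**
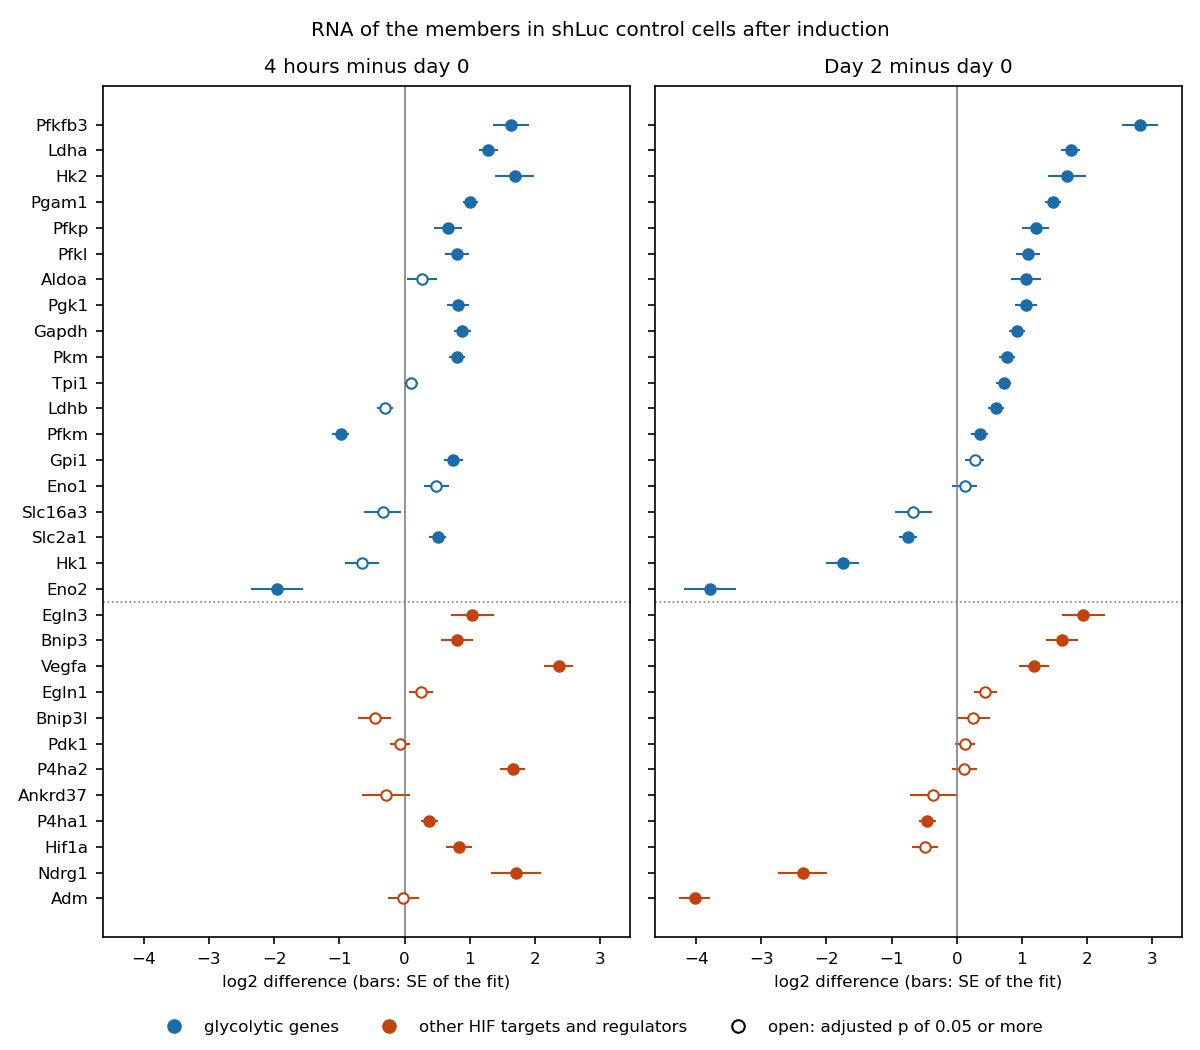
Log2 difference from day 0 in shLuc cells at 4 hours and at day 2 for each tested member, from the limma fit over 12 libraries, with bars for the standard error and filled points for adjusted p under 0.05. Vegfa lies farthest to the right at 4 hours (2.36), and Adm (-4.02) and Eno2 (-3.78) lie farthest to the left at day 2.

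Glucose uptake and its first phosphorylation are served by Slc2a1 and the hexokinases. Slc2a1, which encodes GLUT1, was at log2 levels of 8.89 and 9.17 at day 0, 9.56 and 9.50 at 4 hours and 8.37 and 8.19 at day 2 in shLuc cells. Its 3 pairs of libraries did not overlap, and the 4-hour pair was highest. It rose by 0.51 at 4 hours (SE 0.13, adjusted p 0.0124) and fell by 0.75 at day 2 (SE 0.13, adjusted p 0.000874). The 4-hour rise was not called without shLuc 4 hour replicate 1 or shLuc Day 0 replicate 1 (adjusted p up to 0.105).

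Hk1, the hexokinase of most tissues, was at 7.74 and 8.32 at day 0, 7.07 and 7.68 at 4 hours and 6.42 and 6.14 at day 2. Hk2, the insulin-responsive hexokinase, was at 6.87 and 7.67, then 9.20 and 8.72, then 8.88 and 9.05. The pair crossed: Hk1 was the higher in both day 0 libraries and Hk2 in all 4 later ones. Hk2 rose by 1.69 at 4 hours (SE 0.29, adjusted p 0.0013), while Hk1 differed by -0.66 (adjusted p 0.0644) and fell by 1.75 at day 2 (SE 0.26, adjusted p 0.000239). On the linear scale Hk2 made up 37.1% ± 2.63 of the summed Hk1 and Hk2 level at day 0, 74.3% ± 9.97 at 4 hours and 86.4% ± 2.53 at day 2 (SD, n = 2).

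The phosphofructokinase step showed a second exchange of isoforms. Pfkm, the muscle isoform, was at 8.17 and 8.10 at day 0, 7.29 and 7.03 at 4 hours and 8.50 and 8.48 at day 2. It was lowest in both 4-hour libraries and fell there by 0.98 (SE 0.13, adjusted p 0.00028). Its day 2 difference of 0.35 (adjusted p 0.0417) was lost whichever of the 4 libraries was left out (adjusted p up to 0.164). Pfkl, the liver isoform, and Pfkp, the platelet isoform, rose at both times, by 0.81 and 1.10 for Pfkl and by 0.67 and 1.21 for Pfkp. The 4-hour rise of Pfkp was lost without shLuc 4 hour replicate 2 or shLuc Day 0 replicate 1 (adjusted p up to 0.201). Pfkm made up 46.0% ± 4.01 of the summed level of the 3 isoforms at day 0, 20.6% ± 5.93 at 4 hours and 33.0% ± 0.28 at day 2 (SD, n = 2).

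Pfkfb3 makes fructose 2,6-bisphosphate, the activator of phosphofructokinase. Its levels were 4.91 and 5.04 at day 0, 6.93 and 6.27 at 4 hours and 7.60 and 7.97 at day 2. The pairs were stepwise higher with time and did not overlap. It rose by 1.63 (SE 0.28, adjusted p 0.0011) and 2.81 (SE 0.28, adjusted p 1.6e-05), the largest day 2 rise among the members.

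The 5 most abundant members were glycolytic enzymes from aldolase onward. Averaged over 12 libraries, Gapdh stood at 12.02, Aldoa at 11.83, Pkm at 11.42, Ldha at 10.99 and the triose phosphate isomerase Tpi1 at 10.49, while Pgam1, in the same stretch of the pathway, was at 8.21. Gapdh, glyceraldehyde phosphate dehydrogenase, was at 11.41 and 11.66 at day 0, 12.38 and 12.46 at 4 hours and 12.48 and 12.44 at day 2. Both later pairs lay above day 0 and beside each other. Gapdh rose by 0.89 and 0.93, Pkm by 0.81 and 0.78, phosphoglycerate kinase Pgk1 by 0.82 and 1.06, and phosphoglycerate mutase Pgam1 by 1.01 and 1.48 at 4 hours and day 2. Aldoa (1.07) and Tpi1 (0.72) rose only at day 2 by the test, with 4-hour differences of 0.27 and 0.10, and that later change of Aldoa and Tpi1 is also seen against 4 hours (0.79 and 0.62, both called, Aldoa not without shLuc 4 hour replicate 1 or shLuc Day 2 replicate 2, adjusted p up to 0.125). The isomerase Gpi1 rose at 4 hours (0.75), and its day 2 difference of 0.28 did not pass (adjusted p 0.13).

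Enolase was split between its isoforms. Eno1, the common enolase, did not pass the test at either time (0.49, adjusted p 0.0671, and 0.12). Eno2, the neuronal enolase, was at 7.52 and 6.93 at day 0, 5.70 and 4.83 at 4 hours and 3.87 and 3.01 at day 2. Each later pair lay wholly below the one before. It fell by 1.95 at 4 hours (SE 0.40, adjusted p 0.00315) and by 3.78 at day 2 (SE 0.40, adjusted p 2.51e-05), to 7.26% of its day 0 level. Its share of the summed Eno1 and Eno2 level went from 12.5% ± 4.68 through 2.70% ± 1.60 to 0.942% ± 0.36 (SD, n = 2). Another isoform, Eno3, is not a member and is outside this share. In shLuc cells Eno3 was at 7.21 and 7.07 at day 0, 6.52 and 6.32 at 4 hours and 5.33 and 5.24 at day 2, above Eno2 at both later times.

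At the end of the pathway Ldha, which turns pyruvate into lactate, was at 9.95 and 10.14 at day 0, 11.23 and 11.44 at 4 hours and 11.85 and 11.74 at day 2. No pair overlapped another. It rose by 1.29 (SE 0.15, adjusted p 0.000127) and 1.75 (SE 0.15, adjusted p 7.36e-06). Ldhb, the isoform of oxidative tissues, was at 8.98 and 8.98, then 8.65 and 8.72, then 9.70 and 9.48. It differed by -0.30 at 4 hours (adjusted p 0.0618) and rose by 0.60 at day 2 (adjusted p 0.0014), and its share of the summed lactate dehydrogenase level was 32.4% ± 2.02, 13.7% ± 0.83 and 17.8% ± 0.81 at the 3 times (SD, n = 2). The lactate exporter Slc16a3 (MCT4), a well known HIF target, had the lowest mean level of the tested members (2.45) and was called at neither time.

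Among the other HIF genes Hif1a, the oxygen-regulated subunit itself, was at 9.78 and 10.18 at day 0, 10.90 and 10.72 at 4 hours and 9.41 and 9.59 at day 2. Its RNA was highest in both 4-hour libraries and lowest in both day 2 libraries. It rose by 0.83 at 4 hours (SE 0.20, adjusted p 0.00767) and then fell by 1.31 from 4 hours to day 2 (SE 0.20, adjusted p 0.000387). The 4-hour rise was lost without shLuc 4 hour replicate 1 or shLuc Day 0 replicate 1 (adjusted p up to 0.0679). These values are RNA and carry no measure of HIF protein, which is controlled mainly by degradation.

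Vegfa was at 8.83 and 8.68 at day 0, 11.46 and 10.77 at 4 hours and 10.03 and 9.84 at day 2. The 4-hour pair was highest and the pairs did not overlap. It rose by 2.36 at 4 hours (SE 0.23, adjusted p 3.95e-05), the largest early rise among the members, and stood 1.18 above day 0 at day 2 (SE 0.23, adjusted p 0.00141).

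P4ha1 and P4ha2 encode catalytic subunits of the collagen prolyl 4-hydroxylase. P4ha2 was at 7.86 and 7.76 at day 0, 9.45 and 9.49 at 4 hours and 8.25 and 7.60 at day 2. Its rise of 1.66 (SE 0.19, adjusted p 0.000116) was confined to the 4-hour pair, since the day 2 pair spanned day 0. P4ha1 rose by 0.38 at 4 hours (adjusted p 0.0399) and fell by 0.45 at day 2 (adjusted p 0.0137). Its 4-hour call was lost without shLuc 4 hour replicate 2 or either shLuc Day 0 library (adjusted p up to 0.251), and its day 2 call without shLuc Day 0 replicate 2 or shLuc Day 2 replicate 2 (adjusted p up to 0.0745).

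Ndrg1, a hypoxia- and stress-responsive gene, was at 4.77 and 5.38 at day 0, 6.27 and 7.32 at 4 hours and 2.62 and 2.81 at day 2. Its 3 pairs were far apart, with 4 hours highest and day 2 lowest. It rose by 1.71 (SE 0.38, adjusted p 0.00509) and then lay at 19.4% of day 0 at day 2 (-2.37, SE 0.38, adjusted p 0.000435). Adm, the gene of the vasodilator peptide adrenomedullin, was at 6.77 and 7.17, then 7.10 and 6.79, then 2.92 and 2.97. Day 0 and 4 hours overlapped, and both day 2 libraries were far lower. At day 2 it was left at 6.15% of day 0 (-4.02, SE 0.24, adjusted p 9.1e-07).

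Bnip3 and Bnip3l encode receptors that mark mitochondria for removal. Bnip3 was at 6.74 and 6.59 at day 0, 7.40 and 7.55 at 4 hours and 8.0 and 8.57 at day 2. The pairs were stepwise higher, and it rose by 0.80 at 4 hours (adjusted p 0.0236) and 1.62 at day 2 (SE 0.25, adjusted p 0.000291). The 4-hour call was lost whichever of the 4 libraries was left out (adjusted p 0.0593 to 0.109), while the day 2 call held in each case. Bnip3l was at 8.35 and 8.65, 7.64 and 8.44, and 8.59 and 8.93, and was called at neither time.

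Egln1 and Egln3 encode prolyl hydroxylases that target HIF for degradation. Egln3 was at 5.90 and 6.14 at day 0, 6.73 and 7.39 at 4 hours and 7.83 and 8.10 at day 2. It was higher at each later time, with differences of 1.04 (adjusted p 0.0294) and 1.94 (SE 0.33, adjusted p 0.000646). The early rise was lost without shLuc 4 hour replicate 2 or either shLuc Day 0 library (adjusted p up to 0.194). Egln1, Ankrd37 and Pdk1, an inhibitor of pyruvate dehydrogenase, were called at neither time. Ankrd37 was at 4.31 and 4.55, 3.85 and 4.45, and 4.21 and 3.93, and Pdk1 at 6.92 and 7.07, 6.72 and 7.13, and 7.07 and 7.17.

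From 4 hours to day 2 in shLuc cells 10 members rose and 10 fell (22.9% and 23.5% of all tested transcripts). Of the other HIF genes 6 of 12 fell, namely Ndrg1 (-4.08), Adm (-4.00), P4ha2 (-1.55), Hif1a (-1.31), Vegfa (-1.18) and P4ha1 (-0.83). Bnip3, Egln3 and Bnip3l rose (0.81, 0.91 and 0.72), and each of these 3 calls was lost in 3 of the 4 fits that left out a library. Of the 19 glycolytic genes 7 rose and 4 fell, the falls being Eno2 (-1.83), Slc2a1 (-1.25), Hk1 (-1.10) and Gpi1 (-0.47). The fall of Hk1 was lost without shLuc 4 hour replicate 2 (adjusted p 0.0534), and that of Gpi1 in all but the fit without shLuc 4 hour replicate 1 (adjusted p up to 0.136).

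**Figure D2:**
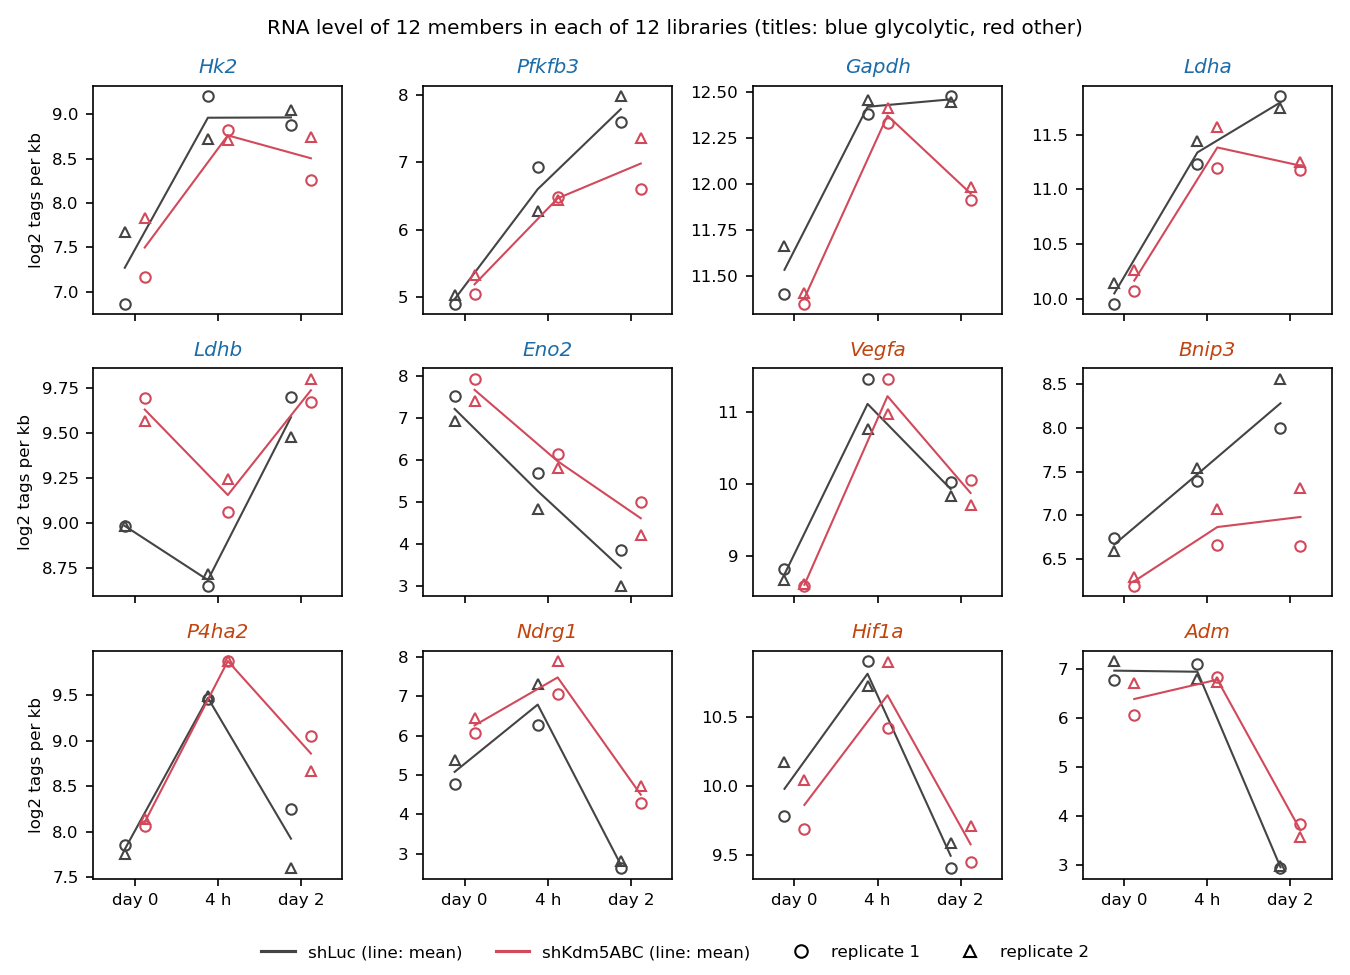
Log2 level of selected members in each of the 12 RNA libraries, grouped by time (day 0, 4 hours, day 2) and coloured by hairpin, with a separate vertical scale in each panel. Day 2 libraries of the knockdown lie below shLuc for Ldha, Gapdh and Bnip3 and above shLuc for Ndrg1 and P4ha2.

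The knockdown cells ran through a like course. At 4 hours against day 0, 15 members rose and 5 fell (22.4% and 23.7% of all tested transcripts), and at day 2, 15 rose and 6 fell (22.0% and 23.1%). Pfkfb3 stood 1.79 above day 0 at day 2 in the knockdown beside 2.81 in shLuc, Ldha 1.05 beside 1.75, Adm -2.69 beside -4.02, Eno2 -3.06 beside -3.78 and Ndrg1 -1.76 beside -2.37. P4ha2, which was level with day 0 in shLuc at day 2 (0.12, not called), was higher in the knockdown (0.75, adjusted p 0.00914), though not without shKdm5ABC Day 0 replicate 1 or shKdm5ABC Day 2 replicate 1 (adjusted p up to 0.0722). Whether those courses differed was tested as a difference of the knockdown effect between times. For day 2 against day 0, none of 31 members passed (8 had an unadjusted p under 0.05), where 0.31% of all tested transcripts passed. With the replicate number as a block 4 passed, against 7.67% of transcripts: Ldha (-0.70, adjusted p 0.018), Adm (1.34, adjusted p 0.0299), Pgam1 (-0.72, adjusted p 0.0159) and Egln3 (-0.996, adjusted p 0.0335). For 4 hours against day 0 none passed in either fit (1 had an unadjusted p under 0.05, and 0.0% and 0.0591% of transcripts passed).

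Before induction the knockdown differed from shLuc at a single member. Ldhb was at 9.69 and 9.56 in the shKdm5ABC libraries of day 0, against 8.98 in both shLuc libraries. All knockdown values lay above all control values, and the difference was 0.65 (SE 0.12, adjusted p 0.0278), or 156% of the shLuc level. Among all tested transcripts 1.51% were called at day 0. The call was lost whichever of the 4 libraries was left out (adjusted p 0.094 to 0.203). With the replicate block 4 members were called (9.44% of transcripts): Ldhb, Ndrg1 (1.18, adjusted p 0.00479), Pgam1 (0.43, adjusted p 0.0245) and Egln3 (0.79, adjusted p 0.0171), all higher. Ndrg1 was at 6.07 and 6.46 in the knockdown at day 0 and Egln3 at 6.67 and 6.95, above both shLuc libraries in each case. The adipocyte marker sum was 11.6 and 12.4 in these 2 knockdown libraries, a wider range than in shLuc. Each adipocyte marker was higher in replicate 2 than in replicate 1 of the knockdown at day 0. Among them Cidec was at 3.68 and 6.98, beside 3.22 and 3.53 in shLuc, and Adipoq at 3.05 and 5.80, beside 3.00 and 3.30. The part of this spread in the day 0 differences was not tested.

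At 4 hours no member was called between knockdown and shLuc (limma, 4 with an unadjusted p under 0.05, 1.44% of transcripts called). With the replicate block 3 were called, where 9.68% of transcripts were: Ldhb (0.47, adjusted p 0.0146) and Eno2 (0.71, adjusted p 0.0186) were higher and Slc2a1 (-0.48, adjusted p 0.0243) lower. Slc2a1 was at 8.97 and 9.13 in the knockdown, below both shLuc values, and Eno2 at 6.14 and 5.81, above both. Ldhb was at 9.06 and 9.25, again above both.

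Day 2 held the most calls. Without the replicate block the called glycolytic genes were lower in the knockdown, and called other members lay on both sides. Of 31 members 2 were higher and 3 lower in the knockdown (5.66% and 3.34% of all tested transcripts, 9.0% in either direction). With the replicate block 12 were called, 4 higher and 8 lower, where 28.1% of transcripts were. Of the 19 glycolytic genes 13 had a negative difference and 6 a positive one, with a median of -0.16, against -0.01 for the 12 other members and -0.00 for all tested transcripts.

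Ldha was at 11.18 and 11.25 in the knockdown at day 2, below both shLuc libraries. The difference of -0.58 (SE 0.15, adjusted p 0.0426) left 66.9% of the shLuc level. Gapdh was at 11.91 and 11.99, also below both, at 70.2% of shLuc (-0.51, SE 0.13, adjusted p 0.0368). These are the only glycolytic genes called without the block. Both calls were lost whichever of the 4 libraries was left out (adjusted p 0.0774 to 0.218) and with quantile normalization.

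Bnip3 was at 6.65 and 7.32 in the knockdown at day 2. Both values lay below the shLuc pair, at 40.6% of it on average (-1.30, SE 0.25, adjusted p 0.0127). It was also the lower in the knockdown at day 0 (6.19 and 6.30) and at 4 hours (6.66 and 7.07) without passing the test. P4ha2 was at 9.05 and 8.67, above both shLuc values, with a difference of 0.94 (SE 0.19, adjusted p 0.0179) or 191% of shLuc. The calls of Bnip3 and P4ha2 each depended on shLuc Day 2 replicate 2 and on shKdm5ABC Day 2 replicate 1, being lost when either was left out (adjusted p up to 0.107 and 0.153).

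Ndrg1 was at 4.29 and 4.71 in the knockdown at day 2, above both shLuc libraries and still below every day 0 value. At 344% of shLuc (1.78, SE 0.38, adjusted p 0.0204) this was the largest knockdown difference among the members, and the knockdown pair was also above shLuc on average at 4 hours (7.07 and 7.90). The call was lost whichever library was left out (adjusted p 0.0792 to 0.0955).

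Of the calls that need the block, Adm (0.76, adjusted p 0.0278) and Eno2 (1.18, adjusted p 0.000593) were higher in the knockdown at day 2. Adm was at 3.83 and 3.57 and Eno2 at 5.01 and 4.23 there, each pair above shLuc. Pfkfb3 (-0.81, adjusted p 0.0365), Aldoa (-0.32, adjusted p 0.0475), Pgk1 (-0.32, adjusted p 0.0267), Tpi1 (-0.29, adjusted p 0.0264) and Pkm (-0.32, adjusted p 0.0136) were lower. The Pfkfb3 libraries read 6.60 and 7.36. These differences and the shLuc differences of day 2 from day 0 use the same shLuc day 2 libraries with opposite sign, so their directions are not independent. Adipocyte marker sums were also lower and preadipocyte sums higher in the knockdown at day 2, by the values given above, and their part in these differences was not tested.

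**Figure D3:**
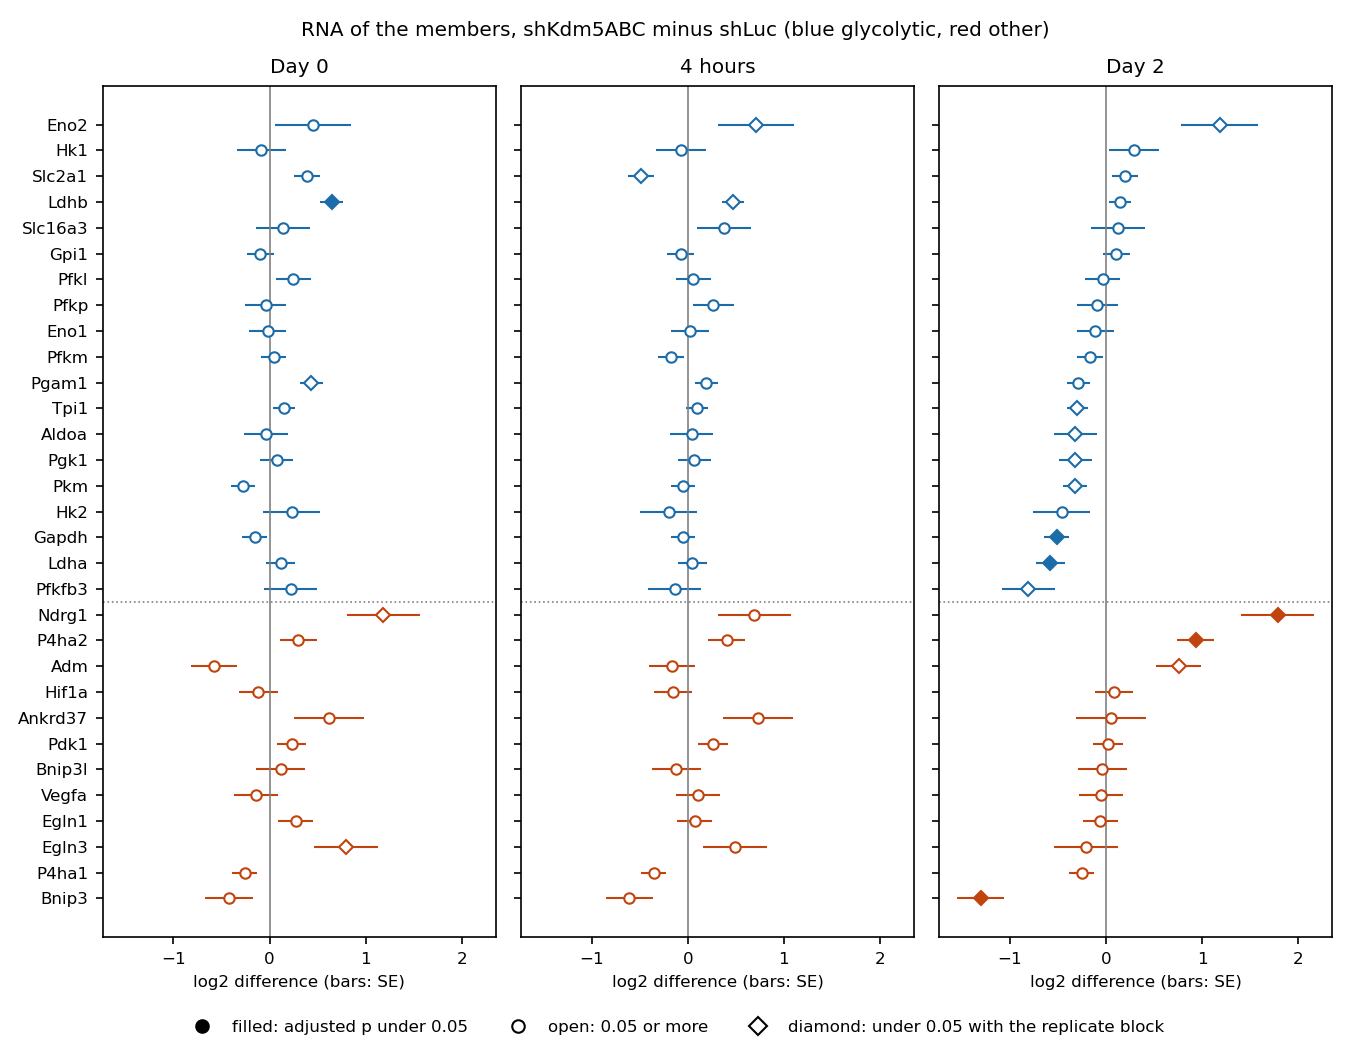
Log2 difference of shKdm5ABC from shLuc for each tested member at day 0, 4 hours and day 2, from the limma fit, with bars for the standard error and filled points for adjusted p under 0.05. At day 2 Bnip3 (-1.30) lies farthest left and Ndrg1 (1.78) farthest right, and most glycolytic genes lie left of 0.

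The remaining values of members named here complete the series for the knockdown. In shKdm5ABC cells at day 0, 4 hours and day 2, Slc2a1 was at 9.29 and 9.54, 8.97 and 9.13, and 8.52 and 8.44. Hk1 was at 7.78 and 8.12, 7.07 and 7.55, and 6.56 and 6.60, and Hk2 at 7.17 and 7.83, 8.82 and 8.70, and 8.26 and 8.74. The Hk2 share of both hexokinases was therefore 42.3% ± 3.70, 73.0% ± 5.73 and 79.1% ± 3.53 (SD, n = 2). Pfkfb3 was at 5.05 and 5.33 at day 0 and 6.49 and 6.44 at 4 hours, and Pfkm at 8.31 and 8.04, 7.03 and 6.93, and 8.37 and 8.27. Gapdh was at 11.35 and 11.41 at day 0 and 12.33 and 12.41 at 4 hours, and Ldha at 10.07 and 10.26, and 11.19 and 11.57. The isoform exchange at the hexokinase and phosphofructokinase steps thus had the same order in time with and without the knockdown. The Ldhb share of lactate dehydrogenase was 40.9% ± 3.83, 17.6% ± 1.39 and 26.4% ± 0.55 (SD, n = 2), above the mean shLuc share at each time, with Ldhb at 9.67 and 9.80 at day 2. Eno2 was at 7.94 and 7.41 at day 0.

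Among the other HIF genes in the knockdown, Hif1a was at 9.69 and 10.04, 10.42 and 10.89, and 9.45 and 9.71. Those values overlapped shLuc at each time, and Hif1a differed by 0.08 at day 2 (adjusted p 0.85). Vegfa was at 8.59 and 8.62, 11.47 and 10.98, and 10.05 and 9.71, also overlapping shLuc at 4 hours and day 2. P4ha2 was at 8.06 and 8.14 at day 0 and 9.88 and 9.87 at 4 hours, and Adm at 6.06 and 6.72 and then 6.84 and 6.73. Both P4ha2 pairs lay above shLuc, and the Adm pairs below or across it. Egln3 was at 7.03 and 8.06 at 4 hours and 7.49 and 8.03 at day 2, and Bnip3l at 8.46 and 8.77, 7.73 and 8.12, and 8.62 and 8.83. Ankrd37 was at 4.88 and 5.23, 4.67 and 5.08, and 4.72 and 3.54, and Pdk1 at 7.19 and 7.27, 7.13 and 7.25, and 7.20 and 7.08. Of these, none was called between knockdown and shLuc at the times given here.

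Neighbouring pathways were read from lists of related genes that are not members. Beside their counts stand the shares of all tested transcripts in shLuc, 20.7% higher and 21.6% lower at 4 hours and 27.1% and 27.8% at day 2. In shLuc cells at 4 hours, 5 of 15 further glycolysis isoforms and transporters rose and 4 fell, with the lactate carrier Slc16a1 at 2.39 and the kinase Pfkfb4 at 1.37 above day 0. Of 10 tested genes of the HIF machinery 4 rose and 2 fell, among them Epas1, the HIF-2 alpha subunit (3.48), and the partner Arnt2 (-2.14). Of 27 further HIF targets 9 rose and 4 fell, among them Higd1a, a hypoxia-induced mitochondrial protein (2.07), and, on the lower side, Ppp1r3c (-2.71). By day 2, 8 of 13 pyruvate dehydrogenase and pyruvate handling genes rose and 2 fell, with pyruvate carboxylase Pcx at 3.84 and the pyruvate carrier subunit Mpc2 at 2.20. Of 8 pentose phosphate genes 7 rose, including the transaldolase Taldo1 (2.79), and 1 fell. The insulin-regulated transporter Slc2a4 (GLUT4) was 3.57 higher at day 2, as Slc2a1 fell. Of the 27 further HIF targets 9 were higher and 8 lower at day 2, near those shares of all transcripts, among them the transferrin receptor Tfrc (2.38) and the collagen crosslinker Lox (-4.74). Against these, the knockdown at day 2 left Lox (1.23) and Hmox1 (0.94) higher and Ak4 (-1.23) lower, and Epas1 was higher at all 3 times (2.06, 1.23 and 1.14).

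The H3K4me3 columns must be read with care, because their names go against promoter markers. Cidec, a lipid droplet gene, had RNA at log2 10.6 to 12.1 in day 2 libraries and 3.22 to 6.98 in all others. At its promoter peak the columns named KDM5_KD_4h held 350 and 389 tags and those named KDM5_KD_D2 451 and 258, while the other 8 columns, Control_D2 included, held 23.2 to 42.0. The columns are therefore called by their deposited names, and no direction of time or knockdown is drawn from them. Tags are the authors' scaled counts in a peak, and all H3K4me3 tests are on log2(tags + 1). Comparisons that pair columns in another way than the labels do were added after these markers were seen.

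A peak was named for 30 of the 32 members, 18 glycolytic and 12 other, and 34 peaks carried their names. Aldoc and Eno1 had none, and a peak named Eno1b, a near copy of Eno1, lay at chromosome 4 (149610327 to 149614495, mm9). Differences between columns largely followed a shift of all peaks. KDM5_KD_D0 against Control_D0 gave 15 of 30 members higher and none lower, where 32.7% of all peaks were called higher and 0.196% lower and the median of all peaks was 0.29, and quantile normalization left 5 (7.4% of all peaks called). KDM5_KD_4h against Control_4h gave 12 lower and none higher (1.62% of all peaks called higher and 34.3% lower, median -0.23), and quantile normalization gave 8 lower and 2 higher, near the 26.3% of all peaks then called. KDM5_KD_D2 against Control_D2 gave 8 higher and none lower (23.8% and 0.243%, median 0.25) and 3 higher and 1 lower with quantile normalization (4.55% of all peaks called). Control_4h against Control_D0 gave 11 higher and none lower (27.8% and 0.00934%, median 0.28) and 2 with quantile normalization (2.26% of all peaks called). Control_D2 against Control_D0 gave 1, Vegfa (0.61, adjusted p 0.04, lost whichever of the 4 columns was left out), where 1.97% of peaks were called, and 11 members were called with the replicate block, which called 15.4% of peaks.

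Of the added pairs, KDM5_KD_D0 against Control_D2 gave 12 higher and none lower (33.1% and 0.0374% of all peaks) and KDM5_KD_D2 against KDM5_KD_4h gave 14 higher and none lower (29.6% and 0.0561%). KDM5_KD_4h against Control_D0 was the pair with the least shift among those with over 1 call (median of all peaks 0.03), and gave 2 members higher and 4 lower, where 5.49% of peaks were called higher and 10.1% lower. Those higher were the prolyl hydroxylase genes Egln3 (0.58) and Egln1 (0.34), and those lower Eno2, Adm, Slc16a3 (-1.04) and Hk1 (-0.59). Egln1 was lost whichever column was left out (adjusted p up to 0.243), Egln3 without KDM5_KD_4h_1 (adjusted p 0.0546), and Slc16a3 without KDM5_KD_4h_1 or either Control_D0 column (adjusted p up to 0.256). With the replicate block 18 members were called in it, against 41.6% of peaks.

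The Adm promoter peak (chromosome 7, 117770820 to 117775332, mm9) held 874 and 924 tags in Control_D0, 1194 and 1221 in Control_4h, 815 and 953 in Control_D2, 1338 and 1327 in KDM5_KD_D0, 167 and 260 in KDM5_KD_4h and 753 and 935 in KDM5_KD_D2. The KDM5_KD_4h pair stood far below every other column. Against Control_D0 it was lower by a log2 difference of -2.10 (SE 0.19, adjusted p 0.000142), and -1.76 with quantile normalization. The Eno2 peak (chromosome 6, 124717943 to 124720500) held 434 and 445, 803 and 800, 226 and 257, 568 and 666, 70.6 and 101, and 234 and 332 tags in the same order of columns. Again KDM5_KD_4h was lowest, with a difference from Control_D0 of -2.37 (SE 0.21, adjusted p 0.00014) and from Control_4h of -3.23 (SE 0.21, adjusted p 8.55e-06). In shLuc RNA these members fell most by day 2. Adm RNA at 4 hours was not called against day 0 in shLuc (-0.02) or in the knockdown (0.40). How the RNA goes with these columns was not tested, and no time is assigned to a column from it.

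Slc16a3 and Ndrg1 had low peaks with the same low columns. The Slc16a3 peak held 61.3 and 71.2, 170 and 238, 53.6 and 57.6, 155 and 216, 27.1 and 37.0, and 131 and 197 tags, and the Ndrg1 peak 97.2 and 193, 282 and 468, 103 and 190, 360 and 450, 50.3 and 68.5, and 104 and 245. KDM5_KD_4h was lowest for both genes. Against Control_4h their differences were -2.63 and -2.61, both called also with quantile normalization (-1.05 and -1.34).

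Egln3 and Ankrd37 followed the general shift but exceeded it. Ankrd37, an ankyrin repeat gene used as a hypoxia marker, held 348 and 384, 734 and 743, 323 and 349, 646 and 656, 365 and 401, and 695 and 664 tags in the 6 pairs of columns. Control_4h, KDM5_KD_D0 and KDM5_KD_D2 were thus high, and the other 3 pairs low. After quantile normalization the difference of Control_4h from Control_D0 was 0.73 for Ankrd37 (adjusted p 0.00816) and 0.67 for Egln3 (adjusted p 0.0089). Egln3 held 449 and 454, 848 and 864, 480 and 539, 843 and 814, 707 and 645, and 1081 and 969 tags.

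Vegfa and Gapdh held the most tags per peak. Vegfa held 2161 and 2495, 2726 and 3165, 3762 and 3357, 4291 and 3578, 3124 and 3026, and 3421 and 3418 tags, so its KDM5_KD_4h pair was within the range of the others while Adm's was not. Gapdh held 1829 to 3299 tags and Ldha 1161 to 1667 over the 12 columns. The Hif1a peak held 767 and 865, 556 and 977, 539 and 979, 768 and 1036, 702 and 959, and 665 and 893 tags. Its replicates differed more than its pairs of columns did, and it was called in none of the 8 comparisons.

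**Figure D4:**
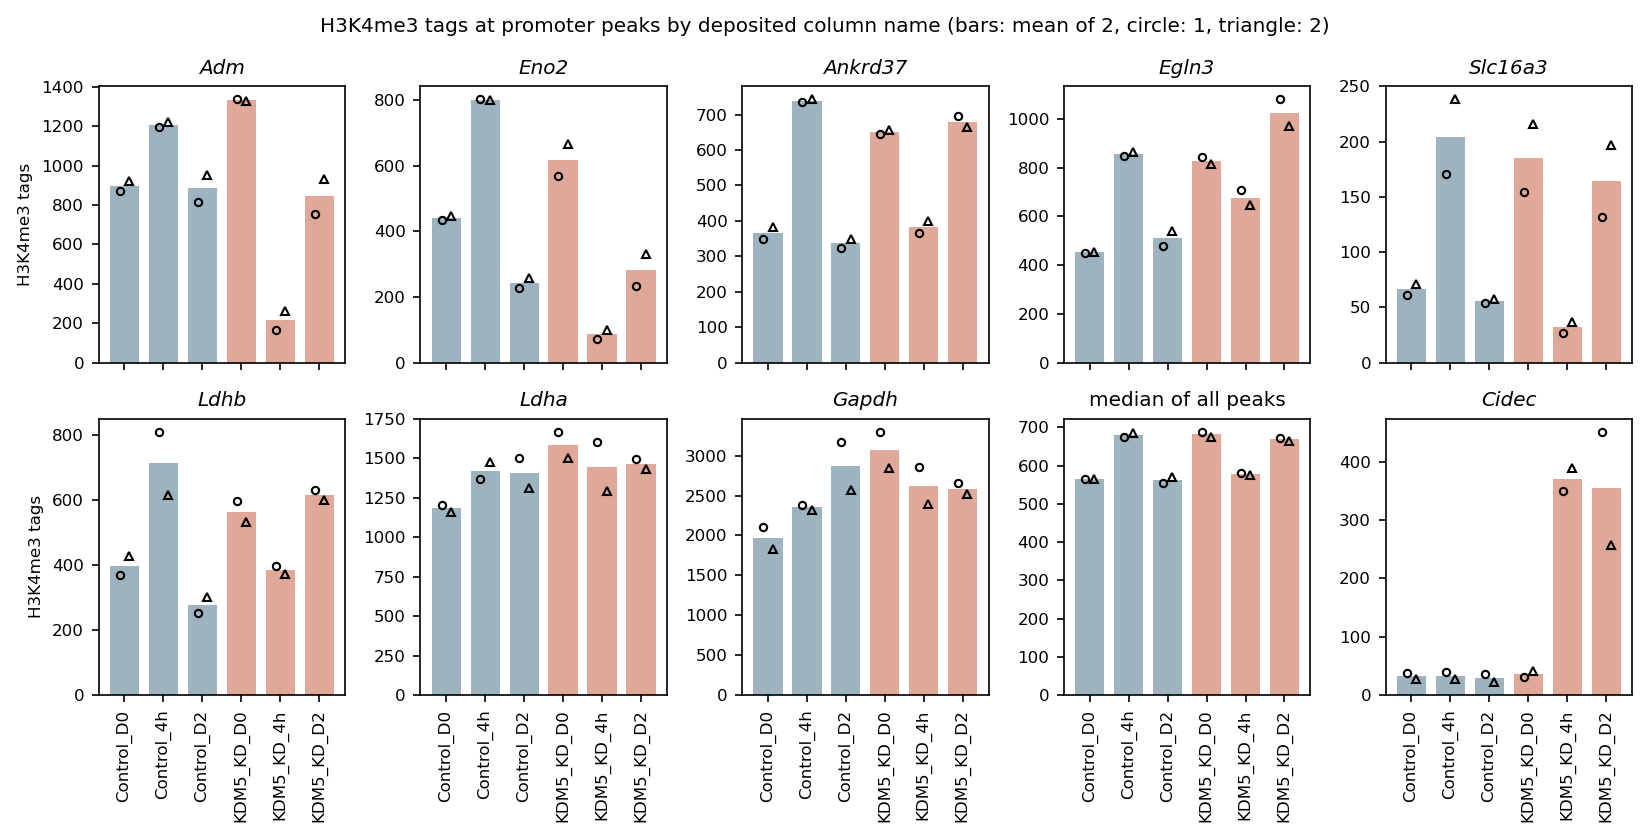
H3K4me3 tags (linear axis, bars for the mean of a pair of columns) at the promoter peak of selected members in each of the 12 deposited columns, named as in the table. Panels for Cidec and for the median of all peaks are shown beside them. The KDM5_KD_4h columns lie lowest for Adm (167 and 260 tags) and Eno2 (70.6 and 101), which is a statement about columns and not about a time or a knockdown.

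KDM5A, read in cells with no stated transduction, was near the start site of most members. Of 87525 KDM5A peaks 264 carried a member's name, and 26 members (15 glycolytic, 11 other) had a peak centred within 1000 bp of the start site. Peaks differ in width (500 to 4155 bp), so levels between genes are given per kb. The median at day 2 was 89.9 tags per kb over the 26 members, 105 over the glycolytic ones and 80.6 over the others, beside 100 over 11076 genes with such a peak. Members thus sat near the middle of bound genes. Hk2 was highest at 164 tags per kb and was the only member in the top 25%, followed by Pfkm at 144 and Ankrd37 at 141. Vegfa (18.5), Adm (22.9), Eno2 (32.6) and Ndrg1 (40.5) were lowest within this window. The Vegfa value is of a small peak at another annotated start than that of its broad peak, described below. By tags per peak, which rises with width, 5 glycolytic genes were in the top 25% (Hk2, Pgam1, Tpi1, Aldoa and Ldha) and none of the others.

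For some members the main peak was centred farther away. Within 5000 bp, Gapdh had a peak of 8316 bp at 2341 bp past its start with 984 tags at day 2, Vegfa a peak of 6446 bp at 2188 bp with 607, Adm a peak of 5032 bp at 2862 bp with 247 and Pkm a peak of 4838 bp at 1396 bp with 448. The low value of Adm near its start site therefore belongs to a small peak beside a broad one. The small Vegfa peak is placed by another annotated start than the broad Vegfa peak, so its low value is not that of the start under the broad peak. By their coordinates and distances, the broad peaks of Gapdh, Vegfa and Pkm span the start sites they are measured from. Gapdh and Pkm are outside the 26 only because their peaks are centred beyond 1000 bp. Egln1 and Slc16a3 also had their highest peak outside 1000 bp, and Aldoc and Eno1 had none within 5000 bp under their own names. The Eno1b peak held 363 tags on average.

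No difference of KDM5A over time was called at these promoters on the deposited scale without a replicate block. None of the 26 promoter peaks was called in any of 3 comparisons by limma or by edgeR's quasi-likelihood test on recovered reads, and 1 had an unadjusted p under 0.05 in each. Few peaks were called at all (0.0606% at 4 hours against day 0, 0.173% at day 2 against day 0 and 0.607% at day 2 against 4 hours). The median differences of the 26 were 0.19, 0.46 and 0.24, beside 0.18, 0.37 and 0.19 over all peaks. In simulated data of this size, none of the changes of 1 on the log2 scale and 32.5% of those of 3 were recovered at day 2 against day 0 by limma, and edgeR recovered 5% of the changes of 1, so most changes of 1 were not detectable here. With quantile normalization 3 of the 26 were called at day 2 against 4 hours, where 2.44% of all peaks were: Egln3 (1.92, adjusted p 0.00419) and Hif1a (1.21, adjusted p 0.00815) higher and Pgk1 (-0.87, adjusted p 0.00818) lower.

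At the Ldha and Hk2 promoters the replicates of day 0 lay farther apart than the means of any pair of times. Ldha held 314 and 150 tags at day 0, 324 and 238 at 4 hours and 361 and 298 at day 2. Hk2 held 475 and 197, 456 and 253, and 504 and 383. Replicate 2 was the lower at each time for both genes. The Hif1a promoter held 164 and 73.9, 130 and 33.6, and 191 and 116 tags, with the lowest difference of the 26 members at 4 hours (-0.72, not called). Pgk1 held 135 and 222, 165 and 537, and 107 and 313, and Egln3 61.5 and 14.8, 37.7 and 12.9, and 84.0 and 60.3. Pgk1 was the exception in that replicate 2 was the higher at each time, and it had the lowest difference of day 2 from 4 hours (-0.70), with Egln3 the highest (1.64), neither called on the deposited scale without a replicate block. Eno2 held 93.6 and 39.8, 67.0 and 59.4, and 49.9 and 47.2 tags, the lowest difference of day 2 from day 0 (-0.33), and the small Vegfa peak 7.80 and 3.41, 15.9 and 18.1, and 11.4 and 20.9, the highest at both later times (1.53 and 1.40). The Eno2 pairs overlapped at day 0 and later, and the small Vegfa peak held 1.80 tags in the input.

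**Figure D5:**
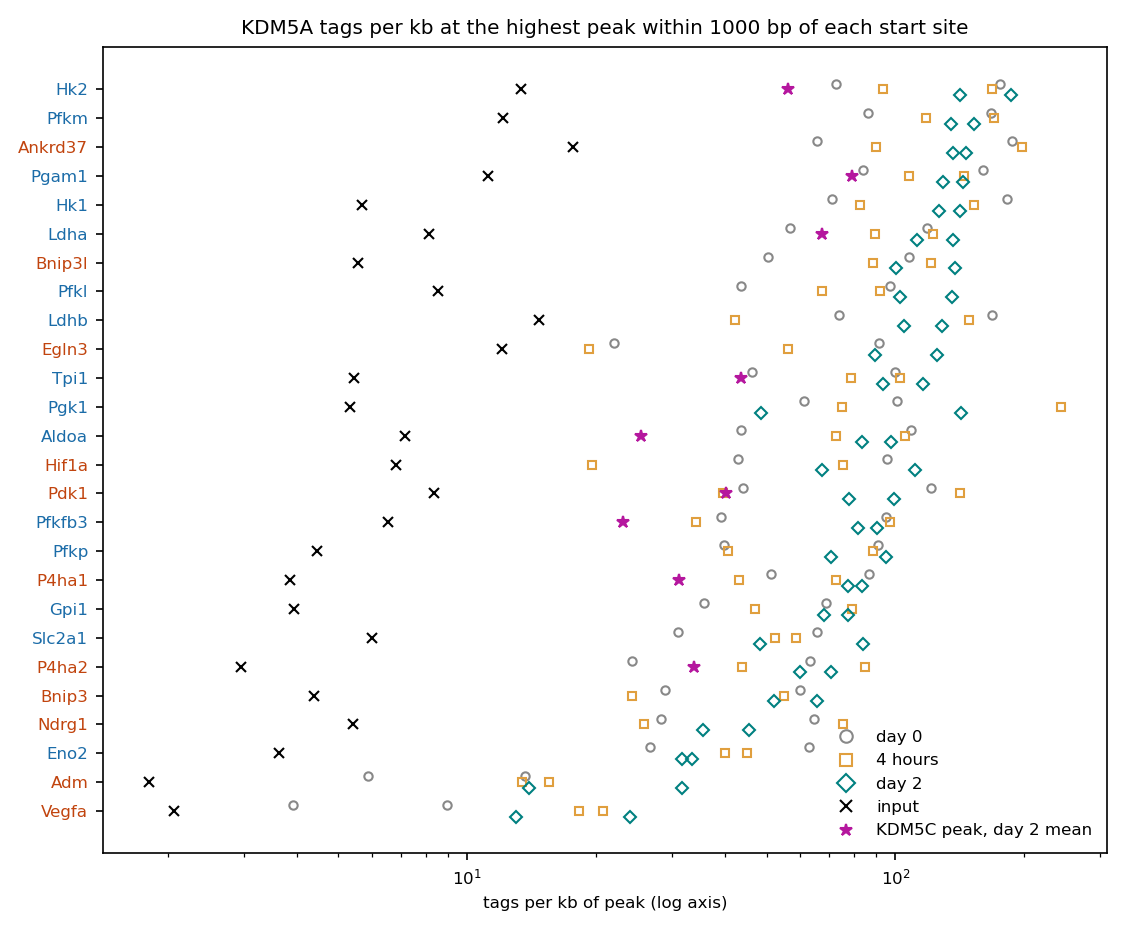
KDM5A tags per kb (log axis) at the highest peak within 1000 bp of the start site of 26 members in each of 6 libraries, with the input and, where present, the day 2 mean of a KDM5C peak; glycolytic genes are named in blue and other members in orange. Hk2 is highest at day 2 (164) and Vegfa lowest (18.5), and input lies below KDM5A for every member. The Vegfa peak drawn is the small one, at another annotated start than that of its broad peak.

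Away from the promoters 4 of 236 member peaks were called, and they were chosen here after their values were seen. There was 1 call at 4 hours and 1 at day 2 against day 0, and 2 at day 2 against 4 hours. In the same order 0.0606%, 0.173% and 0.607% of all peaks were called. A single read stands for 2.27 tags in day 2 replicate 1 and 2.58 in 4 hour replicate 2, so low values are few reads. A peak at -21160 bp from the Vegfa start (chromosome 17, 46189905 to 46191068, mm9) held 16.6 and 6.82 tags at day 0, 82.9 and 67.2 at 4 hours and 45.4 and 34.0 at day 2. Both 4-hour values were highest, and the peak rose by 2.69 (SE 0.58, adjusted p 0.0265 by limma and 0.0192 by edgeR). Vegfa RNA was also highest at 4 hours, and a link between the peak and the RNA was not tested. A peak at -27496 bp from the Hif1a start (chromosome 12, 74980843 to 74981874) held 7.80 and 14.8, 35.2 and 59.4, and 4.54 and 8.50 tags, and fell from 4 hours to day 2 (-2.69, adjusted p 0.0221 by limma). A peak at -41208 bp from the Slc2a1 start (chromosome 4, 118739826 to 118740459) held 29.3 and 14.8, 30.2 and 31.0, and 2.27 and 7.73, and fell likewise (-2.56, adjusted p 0.0367). A peak at -4638 bp from the Pgam1 start held 0.98 and 5.11, 20.1 and 12.9, and 20.4 and 35.6 and was higher at day 2 than at day 0 (3.01, adjusted p 0.0393), though not by edgeR (adjusted p 0.067). The Vegfa call was lost without either 4-hour library or day 0 replicate 2 (adjusted p up to 0.263), and the Hif1a call without 4 hour replicate 2 or day 2 replicate 1 (up to 0.739). The Slc2a1 call was lost without either 4-hour library or day 2 replicate 1 (up to 0.936), and the Pgam1 call without either day 2 library or day 0 replicate 1 (up to 1.0). Distance gives no proof that a peak acts on the named gene.

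KDM5C at day 2 was found within 1000 bp of the start site of 10 of the 32 members (7 glycolytic, 3 other). Of all genes 2133 had such a peak, among 14827 peaks in total. P4ha2 held 84.8 and 33.2 tags, Pgam1 50.9 and 28.3, Hk2 50.9 and 20.9 and Ldha 44.1 and 23.4. Per kb, Pgam1 (79.2), Ldha (67.5) and Hk2 (56.2) were highest, at the 95.9th, 92.6th and 87.2th percentile of genes with a KDM5C promoter peak, and P4ha2, whose peak is 1743 bp wide, was at 33.9 and the 53.8th percentile. By tags per peak P4ha2 was highest of the 10, at the 93.7th percentile. The values per kb rise with narrow peaks, and those of Pgam1 and Ldha were 500 bp wide and that of Hk2 639 bp. P4ha1, Pdk1, Tpi1, Aldoa, Eno1 and Pfkfb3 completed the set, at 23.1 to 43.5 tags per kb. Of the 26 members with a KDM5A promoter peak 9 (34.6%) also had a KDM5C one, beside 16.3% of all genes with a KDM5A promoter peak, given here as a description with no test. These shares count genes by name and not shared sites. For Pfkfb3 the KDM5A peak (chromosome 2, 11422124 to 11424611, mm9) and the KDM5C peak (11475400 to 11475900) lie at different start sites. Eno1 is not among the 9, but its KDM5C peak lies within the KDM5A peak named Eno1b. Replicate 1 was higher than replicate 2 at 9 of the 10, and the libraries differ in depth (2.95M to 8.13M tags).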

How the data were processed

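RNA, H3K4me3, KDM5A and KDM5C were measured by sequencing. Per the name of the deposited table, RNA values are normalized tags per kb on a log2 scale, and their size factors and pseudocount are not given in the sources used here. The deposited ChIP values are signal, as tags per merged peak scaled to a common total (assumed 10M, the HOMER default). Distances to start sites are other deposited values, in bp as the authors' annotation gives them. Tools named in the submitters' processing notes are Bowtie2 (there given as 0.12.8), Subread, DESeq2, STAR and HOMER, with mm9. Symbols came from a reference table for 17253 of 17515 transcripts and from the peak tables for 144.

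Members and lists were chosen with earlier results of these data known. Transcripts at log2 1 or more in at least 2 libraries were tested. Each assay was fitted with limma 3.58.1 (R 4.3.3) over all its libraries (2 per group, mean-variance trend, two-sided, Benjamini-Hochberg over all features, threshold 0.05), ChIP as log2(tags + 1). SE is the error of a fitted difference. KDM5A reads recovered as whole (within 0.1) also went to edgeR 4.0.16. An exact permutation test of 2 against 2 cannot go below 0.333. The KDM5A prior degrees of freedom were infinite, so a KDM5A peak's SE rests on the trend over all peaks.

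Pairing by replicate number was checked as the correlation, between groups, of the difference between their replicates. It was 0.381 to 0.657 in RNA (15 pairs of groups), 0.504 to 0.790 in H3K4me3 (15) and 0.0470 to 0.333 in KDM5A (3). RNA and H3K4me3 were therefore also fitted with a replicate block. Values in every library are given for members called in a knockdown contrast, Hif1a, the 3 highest and 3 lowest changes of each class at 4 hours and day 2 in shLuc, and the extreme ChIP changes; from other lists, up to 2 called genes at each end. On simulated data limma recovered 86.5% of RNA changes of 1 (log2) for the knockdown at day 2 and 92% of H3K4me3 ones for Control_D2 against Control_D0. In all limma simulations the changes were placed in features at or above the median level, with noise independent between libraries. The edgeR simulation of KDM5A placed them in higher peaks still, with a dispersion fixed in advance. Recovery at lower levels, or with replicates correlated as in these data, was not simulated. Totals were 8.37M to 13.6M tags for H3K4me3 and 3.87M to 17.6M for KDM5A, and RNA depth is unknown. The virus input was not analysed here.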

Additional observations from a re-analysis of the deposited data

Results flagged for a closer look

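The knockdown effect at day 2 differed from that at day 0 for 4 of 31 members by the test of the difference itself, in the limma fit with the replicate number as a block. That fit called 7.67% of all tested transcripts. On the log2 scale the difference of effects was -0.695933 for Ldha and -0.722577 for Pgam1, whose RNA was lower relative to shLuc at day 2 than at day 0. It was 1.33645 for Adm, which was higher at day 2, and -0.996241 for Egln3, which was higher than shLuc at day 0 and near it at day 2. Without the block none of these passed (limma adjusted p 0.207 for Ldha, 0.105 for Pgam1, 0.123 for Adm and 0.449 for Egln3). The cause was not tested.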

How the results depend on the processing

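Counts of members called moved most with the replicate block and, for H3K4me3, with scaling. In shLuc RNA the block called 26 of 31 members at 4 hours and 25 at day 2 against day 0, beside the counts of all transcripts given above. For day 2 against 4 hours it called 23, where 4081 of 13534 transcripts were called higher and 4131 lower. Between knockdown and shLuc, the RNA count at day 0 went from 1 to 4 with the block and to 0 without the trend or with only the compared groups. At 4 hours it went from 0 to 3 with the block. At day 2 it went from 5 to 12 with the block, 3 with quantile normalization and 0 with only the compared groups, which leaves 2 residual degrees of freedom. The difference of the knockdown effect (day 2 against day 0) went from 0 to 4 with the block. For these knockdown comparisons the block called 9.44% (day 0), 9.68% (4 hours), 28.1% (day 2) and 7.67% (difference of the effect) of all tested transcripts.

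H3K4me3 counts with quantile normalization went from 15 to 5 (KDM5_KD_D0 against Control_D0), 8 to 4 (KDM5_KD_D2 against Control_D2), 11 to 2 (Control_4h against Control_D0), 12 to 5 (KDM5_KD_D0 against Control_D2) and 14 to 5 (KDM5_KD_D2 against KDM5_KD_4h). Of all peaks it called 7.40%, 4.55%, 2.26%, 5.79% and 8.72% in the same order. With the block the member counts went from 15 to 26, 8 to 14 and 11 to 25 in the first 3 of these comparisons, from 1 to 11 for Control_D2 against Control_D0 and from 6 to 18 for KDM5_KD_4h against Control_D0. Of 10702 peaks the block called 6282 higher and 188 lower, 5575 and 108, and 6331 and 19 in those first 3. It called 15.4% of peaks for Control_D2 against Control_D0 and 41.6% for KDM5_KD_4h against Control_D0. With only the compared groups the counts were 5 for KDM5_KD_D2 against Control_D2, 3 for Control_4h against Control_D0, 0 for Control_D2 against Control_D0 and 3 for KDM5_KD_4h against Control_D0.

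Leaving out a library in turn gave these lowest and highest counts. In shLuc RNA they were 15 and 18 (4 hours against day 0), 20 and 22 (day 2 against day 0) and 14 and 19 (day 2 against 4 hours), and in the knockdown 12 and 18, and 13 and 21 for 4 hours and day 2 against day 0. Between knockdown and shLuc they were 0 and 0 at day 0 and 4 hours and 0 and 3 at day 2. For H3K4me3 they were 9 and 13 (KDM5_KD_D0 against Control_D0), 10 and 11 (KDM5_KD_4h against Control_4h), 4 and 6 (KDM5_KD_D2 against Control_D2), 3 and 9 (Control_4h against Control_D0), 0 and 0 (Control_D2 against Control_D0), 5 and 11 (KDM5_KD_D0 against Control_D2), 10 and 11 (KDM5_KD_D2 against KDM5_KD_4h) and 3 and 5 (KDM5_KD_4h against Control_D0), and for KDM5A 0 and 0.

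The KDM5A count of day 2 against 4 hours went from 0 to 3 with quantile normalization and to 1, Egln3 (adjusted p 0.0167), with the block, and the KDM5A promoter occupancy of members (median tags over members in each day 2 library, averaged over both libraries) went from 178.928 to 214.08 with the highest peak within 5000 bp. Tpi1 in the knockdown at 4 hours against day 0 changed sign with quantile normalization (-0.32). The planned edgeR fit of H3K4me3 was not run: all 12 columns are whole multiples of 1 step within 0.1, but a stricter check on low values alone found this in 4 of the 12. Where a cause is not named, the cause was not tested. With 2 libraries per group, changes under the spread between them could not be called, and RNA depth is unknown.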
